A study of Mus musculus with 2 samples.

Results

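Mixed barcodes, in which genes of T or natural killer (NK) cells and the C1q genes of macrophages were counted together, numbered 789 of the 11481 barcodes that passed the quality limits in leukocytes of MC38 tumors. A barcode marks the RNA of 1 droplet. It was a member where Cd3d, Cd3e, Cd3g, Ncr1, Klrb1c and Klre1 together had at least 3 UMIs (unique molecular identifiers, counted RNA molecules) from at least 2 of these genes, and C1qa, C1qb and C1qc together also had at least 3 UMIs from at least 2 genes. Quality limits were at least 500 UMIs, at least 300 genes and at most 10% of UMIs from mitochondrial genes. The members were chosen by the measured values of these 9 genes, so the presence of the 9 genes in them is a description and not a result.

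MC38, a mouse colon adenocarcinoma line, was grown under the skin of the right flank of female C57BL/6J mice aged 6 to 8 weeks, after injection of the cells in matrigel. A group stayed on normal diet and the other was given ketogenic diet from day 4; no other genotype or agent is labelled. On day 14 the tumors were harvested, cleared of dead cells and enriched for CD45+ leukocytes with magnetic beads, and 5 mice were pooled into 1 droplet library per diet. With 1 library per diet no test between diets was possible and no p-value is given. Intervals in brackets are 95% intervals and cover counting error only.

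C1qa, C1qb and C1qc encode the chains of C1q, the first component of the classical complement pathway, which tissue and tumor macrophages make themselves. Cd3d, Cd3e and Cd3g encode the signalling chains of the T cell receptor. Ncr1 encodes the NKp46 activating receptor and Klrb1c the NK1.1 antigen of NK cells, and Klre1 encodes a lectin-like receptor of the same cells. No single leukocyte type is known to make both sets. In droplet data they can meet in 1 barcode when 2 cells enter 1 droplet, when 2 cells stay attached, when a phagocyte holds material of another cell, or when free RNA is captured. Which of these applied to the members was not tested.

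The rule requires UMIs of both gene sets, so their levels in members are given as a description. Members numbered 490 in the normal and 299 in the ketogenic diet library. Barcodes with the lymphocyte genes only numbered 1752 and 2728 in the same order, and barcodes with the C1q genes only numbered 899 and 373. The median member carried 37 C1q UMIs in the normal library and 29 in the ketogenic one, against 35 and 28 in C1q-only barcodes and 0 in lymphocyte-only barcodes of both libraries. The median member carried 13 and 24 UMIs of the lymphocyte genes, against 9 and 10 in lymphocyte-only barcodes. Per 1000000 UMIs of the barcode (CPM) the C1q genes were lower in members, with medians of 2541 and 1470 CPM against 8193 and 7852 CPM in C1q-only barcodes.

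**Figure D1:**
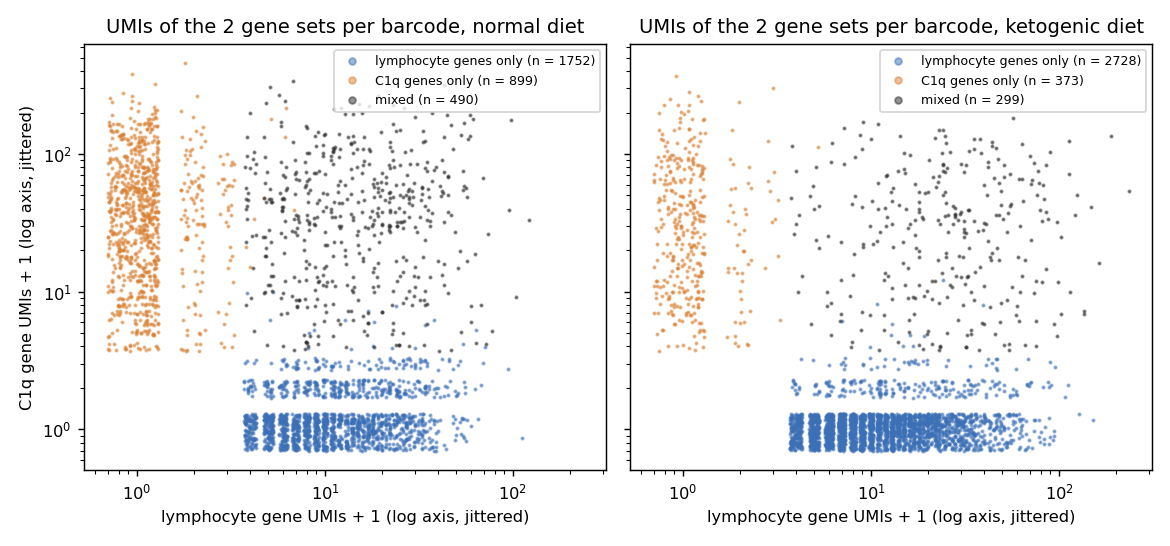
UMIs of the 6 lymphocyte genes (x axis) against UMIs of the 3 C1q genes (y axis) for each barcode of the normal diet library (left) and the ketogenic diet library (right), on log axes after adding 1 and a random jitter for display; colours mark members (black), lymphocyte-only (blue) and C1q-only (orange) barcodes. Members reach the same C1q values as C1q-only barcodes, while nearly all lymphocyte-only barcodes lie at 0 to 2 C1q UMIs.

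Free RNA held both gene sets, and barcodes with genes of other cell types met the rule too. In barcodes of at most 100 UMIs, which hold free RNA rather than cells, C1qb was at 893 CPM in the normal library and 258 CPM in the ketogenic one, and Cd3g at 263 and 432 CPM. Neutrophils should lack both gene sets. Of the barcodes with at least 20 UMIs of S100a8 and S100a9 and at least 1 of Csf3r and Retnlg, genes typical of neutrophils, 16.0% (11.4 to 21.5, 35 of 219) in the normal and 15.3% (11.1 to 20.4, 38 of 248) in the ketogenic library met both criteria, at median depths of 4148 and 5359.5 UMIs. Of barcodes with at least 3 UMIs from at least 2 of the B cell genes Cd79a, Cd79b and Ms4a1, 31.7% (18.1 to 48.1, 13 of 41) and 10.6% (3.55 to 23.1, 5 of 47) did, at 7084 and 7400 UMIs. All 4 shares lay above the share of members among all passing barcodes, 8.74% and 5.09%, although the interval for B cells of the ketogenic library includes that share. The gated barcodes that met both criteria are members themselves, so these shares are not a background independent of the members. How both gene sets came into them was not tested. At least 1 C1q UMI was present in 24.3% (22.3 to 26.3) of lymphocyte-only barcodes in the normal library and 8.87% (7.83 to 10.0) in the ketogenic one, at median depths of 5827.5 and 5631 UMIs. At least 3 C1q UMIs, whatever the number of genes, were present in 1.08% (0.65 to 1.69) and 0.403% (0.20 to 0.72) of them. These last shares have an upper limit set by the rule itself, since barcodes with 3 UMIs from 2 genes count as members. In the other direction, 15.4% (13.1 to 17.9) and 14.2% (10.8 to 18.2) of C1q-only barcodes held at least 1 UMI of the lymphocyte genes. The share of free RNA in a member's C1q count was not tested.

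The 3 C1q genes stood in the same proportions in members as in C1q-only barcodes. C1qa, C1qb and C1qc gave 38.6%, 39.8% and 21.5% of the C1q UMIs of members in the normal library, against 39.3%, 39.7% and 21% in C1q-only barcodes. In the ketogenic library the shares were 36.3%, 41.6% and 22.1%, against 36.0%, 42.2% and 21.9%. Free RNA held them at 38.4%, 42.0% and 19.6% in the normal library and at 35.6%, 44.3% and 20.1% in the ketogenic one, which is also close to the members. The few C1q UMIs of lymphocyte-only barcodes stood at 33.2%, 50.3% and 16.5% and at 24.9%, 55.9% and 19.1%, with more C1qb. A barcode with several UMIs of 1 C1q gene alone counts as lymphocyte-only under the rule, so these last shares are not free of the selection.

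Members made up 8.74% (8.01 to 9.51) of 5608 passing barcodes in the normal library and 5.09% (4.54 to 5.68) of 5873 in the ketogenic library. The order of the libraries depended on the denominator. Among barcodes that met the C1q criterion, members were 35.3% (32.8 to 37.9, 490 of 1389) in the normal and 44.5% (40.7 to 48.3, 299 of 672) in the ketogenic library. Among barcodes that met the lymphocyte criterion, they were 21.9% (20.2 to 23.6, 490 of 2242) and 9.88% (8.84 to 11, 299 of 3027). The 2 criteria differed between the libraries in opposite senses: the C1q criterion was met by 24.8% of passing barcodes in the normal library and 11.4% in the ketogenic one, and the lymphocyte criterion by 39.98% and 51.5%.

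The rule reads depth, because deeper barcodes reach 3 UMIs more readily. After each barcode was thinned to 2000 UMIs and 836 and 1134 shallower barcodes were left out, 112 of 4772 barcodes (2.35%, 1.94 to 2.82) met the rule in the normal and 82 of 4739 (1.73%, 1.38 to 2.14) in the ketogenic library. Without thinning, the same barcodes gave 10.2% and 6.29%. The intervals of the thinned shares overlap in part. Barcodes of 1 library are not replicates of a diet, so neither order is a difference between diets. The libraries shared 7 passing barcodes and no member, and 1 member of the ketogenic library had a barcode that also passed in the normal library.

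Members were deeper than either partner set. The median member had 14080.5 UMIs (quartiles 9010 and 21006) and 3751 genes in the normal library, and 16904 UMIs (quartiles 10570 and 26055) and 3939 genes in the ketogenic library. Lymphocyte-only barcodes had medians of 5827.5 and 5631 UMIs, and C1q-only barcodes 4582 and 4216. The median member thus held 1.35 times the sum of the partners' medians in the normal and 1.72 times in the ketogenic library. Depth was part of what the rule favours, so this excess over a sum is a description.

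The excess depended on the lymphocyte named by the barcode. Types were set from the 6 lymphocyte genes: a barcode was NK-led where the NK gene UMIs exceeded 2 times the CD3 gene UMIs, CD3-led in the opposite case, and "NK and CD3" otherwise. CD3-led barcodes were then split by Foxp3 (the regulator that defines regulatory T cells, Treg-type), by Cd8a and Cd8b1 (the CD8 coreceptor of cytotoxic T cells), by Cd4 (the coreceptor of helper T cells) or by Trdc, Tcrg-C1 and Cd163l1 (gamma-delta T cells). Foxp3 was read first and at a limit of 1 UMI, so 1 UMI named a CD3-led barcode Treg-type whatever its CD8 genes. The CD8 genes were read next, at a limit of 2 UMIs. Deep barcodes reach such limits more readily, so the Treg-type name is partly a matter of depth. NK-led members had a median of 11742 UMIs in the normal library and 9497 in the ketogenic one, 1.13 and 1.01 times the sum of the NK-led and C1q-only medians. Treg-type members had 17824 and 25790 UMIs, 1.45 and 1.8 times their sum. CD8-type members lay between, at 1.37 and 1.54 times, and members with both NK and CD3 genes were at 1.54 and 1.30 times. Other CD3-led members did not all exceed the sum. Those of no subtype (57 and 18) were at 0.935 and 1.24 times. Gamma-delta-type members (8 and 3) were at 0.953 and 0.885 times and CD4-type members (13 and 3) at 1.23 in both.

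**Figure D2:**
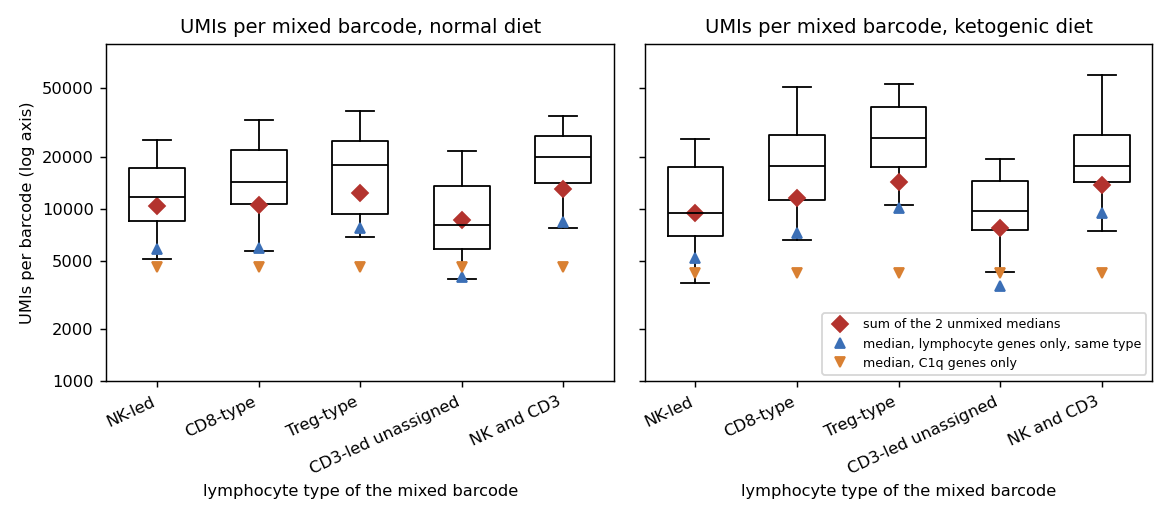
UMIs per member (log axis) by lymphocyte type in the normal diet (left) and ketogenic diet (right) libraries; boxes span the quartiles with the median as a line, whiskers the 5th to 95th percentiles, triangles the medians of the 2 partner sets, and diamonds the sum of those medians. NK-led members sit near the sum, and Treg-type members sit above it in both libraries. The median of CD3-led members of no subtype (unassigned) is below the sum in the normal and above it in the ketogenic library.

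By these gates, NK-led barcodes were a smaller share of members than of lymphocyte-only barcodes, and CD3-led barcodes a larger one. NK-led barcodes made up 20.2% (16.7 to 24.0, 99 of 490) of members in the normal library, against 49.1% (46.8 to 51.5, 861 of 1752) of lymphocyte-only barcodes. In the ketogenic library they made up 12.7% (9.15 to 17.0, 38 of 299), against 50.9% (49.0 to 52.8, 1389 of 2728). CD3-led barcodes of any kind made up 66.1% (61.7 to 70.3) and 67.9% (62.3 to 73.2) of members, against 42.9% (40.6 to 45.3) and 39.8% (38 to 41.7) of lymphocyte-only barcodes. The intervals of members and lymphocyte-only barcodes did not overlap in either library, but they cover counting error only. The types were named from the same lymphocyte genes that the rule reads, and members were deeper than lymphocyte-only barcodes. These shares are therefore a description and not a test.

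Within the CD3-led barcodes, CD8-type and Treg-type shares were higher in members at full depth. CD8-type barcodes were 38.4% of members and 25.7% of lymphocyte-only barcodes in the normal library, and 44.5% and 21.2% in the ketogenic library. Treg-type barcodes were 11.8% (58) of members and 4.00% (70) of lymphocyte-only barcodes in the normal, and 15.4% (46) and 3.85% (105) in the ketogenic library. CD4-type and gamma-delta-type members were few, 13 and 8 in the normal library and 3 and 3 in the ketogenic one. CD3-led members with none of these genes were 57 and 18, and members with both NK and CD3 genes were 67 (13.7%) and 58 (19.4%), against 7.93% and 9.24% of lymphocyte-only barcodes.

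After thinning to 2000 UMIs the NK-led share was still lower in members, while the CD8-type intervals came to overlap. Of the members deep enough, 112 of 489 and 82 of 298 still met the rule. Both sets were named anew at this depth, so lymphocyte-only barcodes could include members that had lost their C1q UMIs. NK-led barcodes were then 11.6% (6.33 to 19.0) of members and 33.2% (30.3 to 36.2) of lymphocyte-only barcodes in the normal library, and 11% (5.14 to 19.8) and 38% (35.6 to 40.4) in the ketogenic library. CD3-led barcodes of any kind were 75% (65.9 to 82.7) and 54.9% (51.7 to 58.0) in the normal, and 63.4% (52.1 to 73.8) and 46.3% (43.9 to 48.8) in the ketogenic library. At this depth CD3-led barcodes outnumbered NK-led ones in lymphocyte-only barcodes as well, the reverse of the order at full depth. CD8-type barcodes were 25.9% (18.1 to 35.0) of members and 30.4% (27.5 to 33.3) of lymphocyte-only barcodes in the normal, and 24.4% (15.6 to 35.1) and 22.4% (20.4 to 24.5) in the ketogenic library, with overlapping intervals. Many CD3-led members lost the genes that name a subtype: CD3-led members with none of them were 42.0% and 34.1% of thinned members, against 19.2% and 18.7% of lymphocyte-only barcodes, where they had been 11.6% and 6.02% of members at full depth. The CD8-type shares after thinning therefore do not show that members and lymphocyte-only barcodes hold CD8 T cells alike. Treg-type members numbered 7 and 1 at this depth, too few to place.

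**Figure D3:**
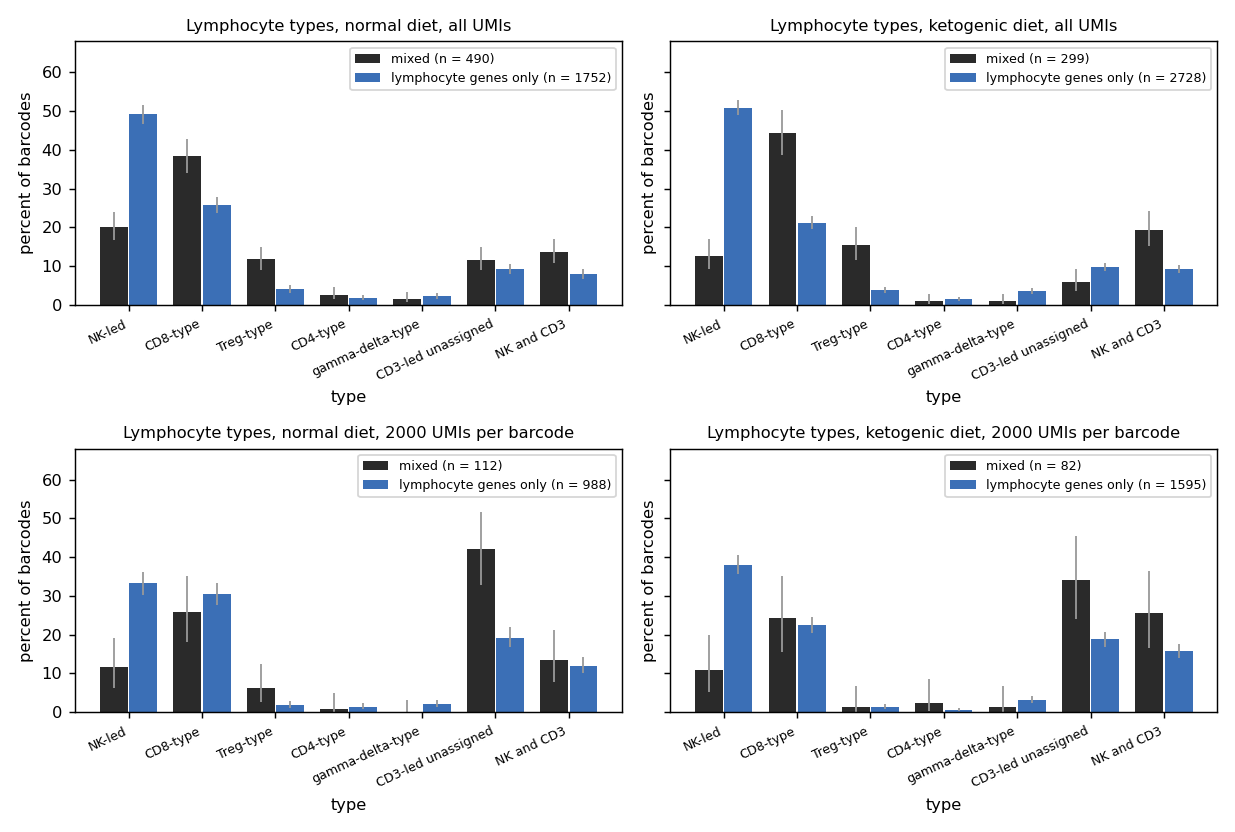
Share of each lymphocyte type (percent of barcodes) among members (black) and lymphocyte-only barcodes (blue), for the normal diet (left) and ketogenic diet (right) libraries, with all UMIs (top) and after thinning to 2000 UMIs per barcode (bottom); grey lines are 95% Clopper-Pearson intervals. The NK-led share is lower in members in all 4 panels, and the CD8-type intervals overlap in the lower panels.

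The 6 lymphocyte genes were lowest per UMI in NK-led and highest in CD8-type lymphocyte-only barcodes, with the other T cell types between them. In the normal and the ketogenic library they gave 1206 and 1366 CPM in NK-led and 2976 and 2756 in CD8-type barcodes. Treg-type barcodes were at 1765 and 1998 and CD4-type at 1499 and 1393. Gamma-delta-type barcodes were at 2600 and 2498, and CD3-led barcodes of no subtype at 2022 and 2260. NK-led members held a median of 7 and 8 lymphocyte-gene UMIs, against 21 and 29 in CD8-type members. CD4-type members and CD3-led members of no subtype had a median of 6 in the normal library. How far the distance to the limit of 3 UMIs set the share of each type was not tested.

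Genes outside the rule, summed with no limit per barcode, also leaned to T cells in members. T cell genes (Trac, Trbc1, Trbc2, Cd5, Cd6, Cd28, Lat and Bcl11b, the receptor chains and signalling or identity genes of T cells) and NK genes (Eomes, Klra8, Klra4, Klra7, Klri2 and Txk, a transcription factor, Ly49 and related receptors and a kinase) were summed over all barcodes. T cell genes made up 75.4% (74.7 to 76.2, 9675 of both sets' UMIs) in members of the normal library, against 62.5% (61.9 to 63.0) in lymphocyte-only barcodes. The shares were 77.0% (76.2 to 77.7) and 62.7% (62.3 to 63.1) in the ketogenic library. The members were still chosen by the rule, and a sum over barcodes gives deep barcodes more weight.

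The share of each lymphocyte type that carried C1q genes followed the same order in both libraries. Members were 10.3% (8.46 to 12.4) of NK-led, 29.5% (26.0 to 33.2) of CD8-type and 45.3% (36.5 to 54.3) of Treg-type barcodes in the normal library. In the ketogenic library they were 2.66% (1.89 to 3.64), 18.7% (15.9 to 21.7) and 30.5% (23.2 to 38.5). Each of these 3 shares was lower in the ketogenic library, where fewer barcodes met the C1q criterion. Depth rises in the same order within the lymphocyte-only barcodes, with medians of 5834, 5930 and 7693.5 UMIs in the normal library and 5183, 7276 and 10075 in the ketogenic one, and its part in the order was not tested.

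Most members lay between the partners in a fit over genes the rule did not use. The fit places any barcode on this range, and how well a sum of partners describes a member was not tested. For each barcode a macrophage weight was fitted by maximum likelihood: the share of its UMIs that came from the mean C1q-only profile, with the rest from the mean lymphocyte-only profile of its own type and library, leaving out the 9 rule genes and mitochondrial genes. The median weight of members was 0.502 (quartiles 0.299 and 0.687) in the normal and 0.278 (quartiles 0.10 and 0.478) in the ketogenic library. Lymphocyte-only barcodes had a median of 0.000 and C1q-only barcodes of 1.0 in both libraries. Weights of 0.2 to 0.8 were found in 342 of 490 members (69.8%, 65.5 to 73.8) and 175 of 299 (58.5%, 52.7 to 64.2). They were found in 15.7% and 11.7% of lymphocyte-only barcodes and in 9.01% and 7.77% of C1q-only barcodes. The profiles are means of these same partner barcodes and hold no members. Partner weights near 0 and 1 are therefore partly built in and are not an independent contrast.

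**Figure D4:**
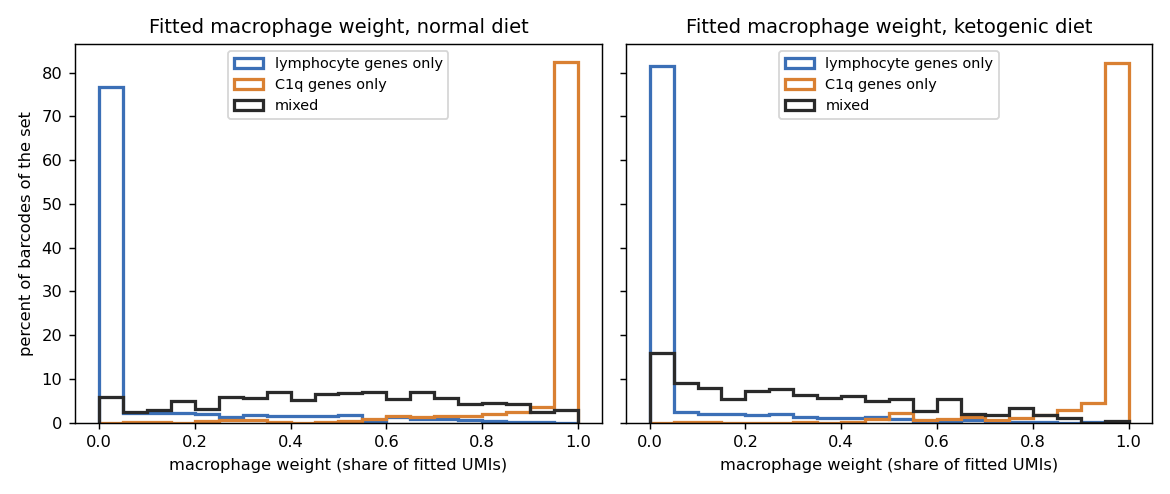
Distribution of the fitted macrophage weight (x axis, 0 is all lymphocyte and 1 all macrophage; y axis, percent of barcodes of the set) for lymphocyte-only (blue), C1q-only (orange) and mixed (black) barcodes of the normal diet (left) and ketogenic diet (right) libraries. The partner sets, fitted against their own mean profiles, pile up at 0 and 1. Members spread between them, and the ketogenic members lie further to the lymphocyte side.

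A weight is a range and not a class. In the normal library 39 members lay between 0.15 and 0.25 and 43 between 0.75 and 0.85, and in the ketogenic library 38 and 15 did. At the ends, 29 members of the normal and 48 (16.1%) of the ketogenic library had a weight under 0.05, little more macrophage RNA than their lymphocyte-only profile already held. Over 0.95 there were 14 members and 1 member. Members just inside the C1q limit, with 3 or 4 C1q UMIs, had a median weight of 0.266 (32 members) and 0.210 (30 members). Barcodes just outside it, with 2 C1q UMIs, were at 0.000 (93 barcodes) and 0.120 (42 barcodes). At the other limit, members with 3 or 4 lymphocyte UMIs were at 0.764 (52) and 0.622 (16), and barcodes with 2 were at 0.882 (35) and 0.790 (11).

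The weight differed by lymphocyte type. NK-led members had median weights of 0.506 in the normal library and 0.436 in the ketogenic one, CD8-type members 0.488 and 0.283, and Treg-type members 0.388 and 0.155. CD3-led members of no subtype were above the NK-led ones in both libraries, at 0.605 and 0.622. The few CD4-type members were at 0.775 and 0.428 and the few gamma-delta-type members at 0.821 and 0.041. The weight thus had no single order from NK to T cells. Multiplying weight by depth gave the size of each part. The lymphocyte part of the median member was 6583 UMIs in the normal library and 11418 in the ketogenic one, which is 1.13 and 2.03 times the median lymphocyte-only barcode of any type. Set against lymphocyte-only barcodes of the same type, it was 1.08 and 1.14 times in NK-led, 1.14 and 1.57 in CD8-type, 1.33 and 1.83 in Treg-type members and 1.54 and 1.42 in members with NK and CD3 genes. In CD3-led members of no subtype it was 0.777 and 0.978 times. In CD4-type members it was 0.514 and 1.17 times and in gamma-delta-type members 0.282 and 1.35 times. The macrophage part was 6339 and 4165 UMIs, 1.38 and 0.988 times the median C1q-only barcode.

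The macrophage part was in places closer to a monocyte. When another profile, of C1q-negative monocytes (1643 and 1438 barcodes), was added, the median macrophage weight of members was 0.313 in the normal library and 0.15 in the ketogenic one, and the median monocyte weight 0.073 and 0.035. The monocyte weight exceeded the macrophage weight in 143 of 490 and 118 of 299 members. In this fit the macrophage weight was at least 0.2 in 317 of 490 and 124 of 299 members, against 411 and 184 without the monocyte profile. Lymphocyte-only barcodes also carried macrophage genes: 22 macrophage genes outside the rule, such as Apoe and Cd68, summed to 6719 and 6680 CPM in the lymphocyte profile, against 29176 and 28106 CPM in C1q-only barcodes. All fits below use the partners with that background in them.

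No gene was higher in members than the sum of the partners by 1.5-fold in both libraries, among 8091 genes with at least 50 member UMIs in each library (percent called 0.0). None was lower by that fold in both (0.0), and none exceeded the higher of the 2 partners by it (0.0). Fold changes are ratios of CPM with 20 CPM added to both sides. The fitted sum has the same total as the members and the weights were chosen to bring it as close as possible to them, so a ratio near 1 is what such a fit tends to give. The central 95% of genes had ratios of 0.885 to 1.147 in the normal library and 0.872 to 1.148 in the ketogenic one. No gene was over 1.2-fold in both libraries, and 16 were lower by over 1.2-fold in both.

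**Figure D5:**
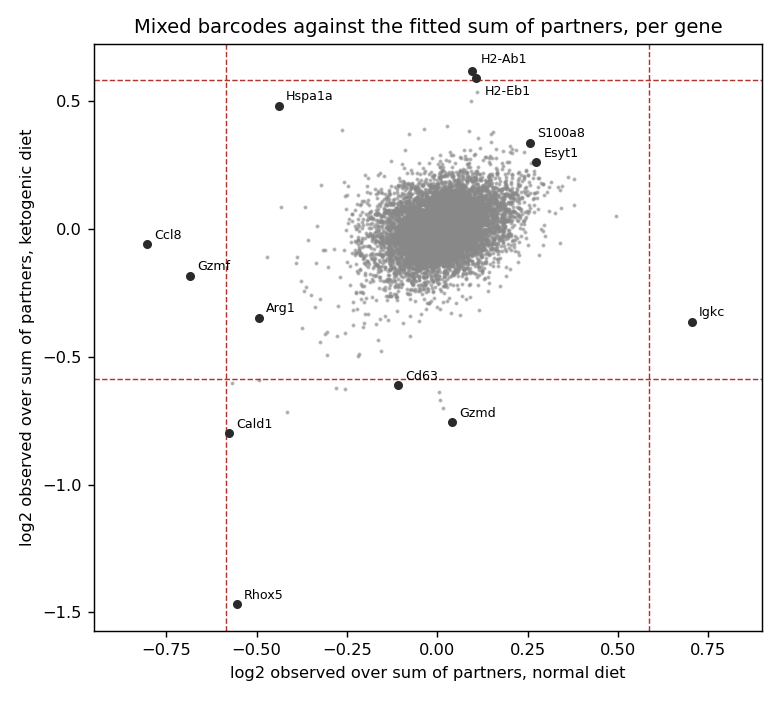
Log2 ratio of members over the fitted sum of partners for each gene tested, in the normal diet library (x axis) and the ketogenic diet library (y axis); dashed lines mark 1.5-fold. The cloud lies within the lines, no gene is beyond the same line in both libraries, and the labelled genes past a line are past it in 1 library only or lie near it.

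In single libraries few genes passed the fold. In all, 1 gene was higher (0.0124% of genes) and 2 were lower (0.0247%) in the normal library, and 2 were higher (0.0247%) and 12 lower (0.148%) in the ketogenic library. The higher gene in the normal library was Igkc, the immunoglobulin kappa constant region of B and plasma cells, at 34.8 CPM (30.7 to 39.2) against a fitted sum of 13.6. In the ketogenic library Igkc was at 19.0 CPM against 30.2, and 17.8% and 16.8% of its UMIs lay in 1 barcode. The higher genes of the ketogenic library were H2-Ab1 and H2-Eb1, chains of the MHC class II molecules that present antigen to CD4 T cells.

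MHC class II genes leaned above the sum in the ketogenic library as a group. H2-Ab1 was at 1316 CPM (1287 to 1344) against a fitted sum of 849, a ratio of 1.54, and H2-Eb1 at 943 CPM (919 to 967) against 620, a ratio of 1.51. H2-Aa was at 1333 against 937 CPM (1.41) and Cd74, the invariant chain, at 3168 against 2548 CPM (1.24). In the normal library these 4 genes had ratios between 1.07 and 1.08. All 8 listed genes were above the sum in the ketogenic library, with a median log2 ratio of 0.33 beside 0.01 over all genes tested. In the normal library 7 of 8 were, with a median of 0.10 beside 0.01. Only H2-Ab1 and H2-Eb1 passed 1.5-fold, and neither exceeded the higher partner, since C1q-only barcodes held 1567 and 1063 CPM of them.

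The MHC class II ratio depended on type and on how partners were set. H2-Ab1 was at 1.67 and 1.55 times the sum in NK-led and CD8-type members of the ketogenic library and at 1.02 in Treg-type members. It was at 1.81 in members with weights of 0.2 to 0.8, and at 1.42, below the fold, when partners had 0 UMIs of the other gene set. Dendritic cells and B cells also carry MHC class II. Members with at least 3 UMIs from at least 2 of 10 dendritic cell genes, such as Flt3 and Ccr7 (the second also a gene of T cells), were 17.1% (13.9 to 20.8) in the normal library and 20.7% (16.3 to 25.8) in the ketogenic one. Lymphocyte-only barcodes were at 3.71% and 4.99%, and C1q-only barcodes at 1.78% and 0.804%, all at the lower depths given above. Members with B cell genes by the same limit were 8.98% and 11.4%, against 1.43% and 2.16% of lymphocyte-only barcodes. The part of such further cell types in the MHC class II ratio was not tested.

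Ratios nearest to an excess in both libraries were small and are given as description. Ranked by the smaller of the 2 ratios, Esyt1, which encodes a tether between the endoplasmic reticulum and the plasma membrane, came first at 1.21 in the normal library and 1.2 in the ketogenic one. It was at 168 CPM (159 to 178) against a sum of 136 and at 151 CPM (142 to 161) against 123. Cyfip2, a regulator of actin, followed at 1.2 in both. S100a8, a calcium-binding protein of neutrophils and monocytes, was at 1.19 and 1.26. Dusp5, a phosphatase that restrains ERK kinases, was at 1.18 and 1.23, and Runx3, a transcription factor of cytotoxic lymphocytes, at 1.18 in both. Gzma, a granzyme of NK and T cells, was at 1.2 and 1.16. Ciita, the master regulator of MHC class II transcription, was at 1.28 and 1.15, with 42.8 CPM against 28.9 in the normal and 21.9 against 16.4 in the ketogenic library.

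The other genes of the 25 with the highest ratios lay between 1.15 and 1.25 in both libraries. They were Cd24a, Anxa6, Nr4a1, Trps1, Tab2, Tecpr1, Cx3cr1, Map4k1, Klrb1b, Ccnd2, Taok3, Ifitm6, Csf2rb, Mknk2, Arid1a, Eomes, Sh3bp1 and Map3k1. They include lymphocyte genes (Eomes, a transcription factor of NK and CD8 T cells, and Klrb1b, an inhibitory lectin-like receptor) and myeloid genes (Csf2rb, the shared receptor chain for GM-CSF, and Cx3cr1, a chemokine receptor of monocytes and macrophages). None passed 1.5-fold in either library.

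Genes below the sum in both libraries were mostly genes of the macrophage partner: 7 of the lowest 10 were higher in C1q-only than in lymphocyte-only barcodes in both libraries. Arg1, the arginase of suppressive macrophages, was at 188 CPM (178 to 198) against a sum of 273 in the normal and 132 CPM (124 to 142) against 174 in the ketogenic library, ratios of 0.71 and 0.79. Mrc1, the mannose receptor, was at 0.79 and 0.81, Ccl12, a monocyte-attracting chemokine, at 0.83 and 0.75, and Cd81, a tetraspanin, at 0.75 and 0.61. Timp2 and Selenom, higher in C1q-only than in lymphocyte-only barcodes, were at 0.81 and 0.75 and at 0.82 and 0.65, and Mt1, a metallothionein, was at 0.80 and 0.74. Of the lowest 10, 2 genes higher in lymphocyte-only barcodes were Rps26, a ribosomal protein, at 0.81 and 0.76, and Gm156, at 0.81 and 0.71. AY036118 completed the 10, at 0.77 in both.

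Some low ratios rested on few C1q-only barcodes or members. Pf4, Igfbp4, Cald1 and Rhox5 had over 20% of their member UMIs in 1 barcode of at least 1 library. Rhox5, a homeobox gene listed here as a tumor marker, was at 32.4 CPM against a sum of 57.0 in the normal and 9.76 against 62.3 in the ketogenic library, and Cald1, an actin-binding gene of stromal cells, at 20.8 against 40.8 and 9.92 against 32.1. Members with tumor or stromal genes by the limit above were 1.22% and 1.34%, and C1q-only barcodes 2.34% and 2.41%.

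Granzyme genes and chemokines past the fold in 1 library were not shared by the other. Gzmf was at 612 CPM against 996 in the normal library (0.62) and at 957 against 1089 in the ketogenic library (0.88). Gzmd was at 432 against 419 (1.03) and at 259 against 451 (0.59), and Gzme and Gzmg were likewise below the sum in the ketogenic library alone, at 0.64 and 0.63. Up to 49.7% of the Gzmg UMIs of members came from 1 barcode. Ccl8, a chemokine of macrophages, was at 67.5 CPM against 132 in the normal library (0.57), and Ccl7, another, at 330 against 520 in the ketogenic library (0.65). Cd63 and Cxcl3 were the remaining genes lower in the ketogenic library, at 0.66 and 0.62. Ccl8 had 46.8% of its UMIs in 1 barcode of the ketogenic library, and Cxcl3 had 22.1% in 1 barcode of the normal library.

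Listed genes of uptake, adhesion and checkpoints lay near the sum, which is what the fit itself tends to give. Whether contact or uptake gave rise to members was not tested. Of 10 measured receptors and bridging genes for the uptake of dying cells, none passed 1.5-fold in either library, and their median log2 ratio was 0.01 in the normal library and 0.05 in the ketogenic one, beside 0.01 in both over all genes tested. Anxa1, a lipid-binding protein that can bridge to dying cells, was at 136 CPM against 158 and at 159 against 176, below the sum in both libraries. Lrp1, a receptor for apoptotic cells, was at 124 against 118 and at 74.7 against 68.9, and Axl, another, at 109 against 109 and at 54.4 against 51.4. Of 19 measured adhesion and synapse genes none passed, with medians of 0.08 and 0.04. Cd47, which signals to phagocytes not to engulf, was at 710 CPM against 664 and at 716 against 694, Itgb2, the beta chain of LFA-1, at 275 against 260 and at 243 against 222, and Cd44, an adhesion receptor, at 249 against 221 and at 228 against 217. Of 10 measured checkpoint genes none passed, with medians of 0.06 and −0.02. Lgals9, which encodes galectin-9, was at 259 CPM against 229 and at 193 against 192, and Vsir, which encodes the inhibitory protein VISTA, at 166 against 156 and at 121 against 117. Cd274, which encodes PD-L1, was at 108 CPM against 107 and at 90.9 against 85.6.

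Most effector genes also lay near the sum, apart from the granzymes and chemokines named above. Of 23 measured chemokines and cytokines, Ccl8 alone passed in the normal and Ccl7 alone in the ketogenic library, both lower, and the medians were −0.03 and 0.01. Cxcl10, an interferon-induced chemokine that attracts T cells, was at 1432 CPM against 1619 and at 1500 against 1535, and Ccl5, a chemokine of T and NK cells, at 1220 against 1340 and at 1447 against 1308. Of 16 cytotoxic genes, 1 passed in the normal library and 3 in the ketogenic one, all lower, with medians of 0.01 and −0.10. Over all genes tested, 0.0247% and 0.148% were lower past the fold in the normal and the ketogenic library. Gzmc, a granzyme of activated killer cells, was at 3577 CPM against 3512 and at 4137 against 4065, and Nkg7, a granule membrane protein, at 1231 against 1253 and at 1638 against 1705. None of the 19 type I interferon or 15 interferon-gamma response genes passed. Isg15, a ubiquitin-like protein induced by interferon, was at 2562 CPM against 2645 and at 2038 against 2013, and Bst2, the antiviral tetherin, at 1224 against 1267 and at 1162 against 1198. Psmb8, an immunoproteasome subunit induced by interferon-gamma, was at 1060 CPM against 1012 and at 1127 against 1064.

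The remaining groups held 3 further points. Of 17 immediate early and heat shock genes none passed 1.5-fold. Junb, a subunit of the AP-1 transcription factor, was at 1010 CPM against 940 and at 1319 against 1218. Hspa1a, an inducible chaperone, was below the sum in the normal (51.1 CPM against 76.3) and above it in the ketogenic library (90.2 against 58.9). Cell cycle genes were below the sum in the normal library, with 2 of 20 above it and a median log2 ratio of −0.21, and near it in the ketogenic library, with 11 of 20 above and a median of 0.01. All 5 measured neutrophil genes were above the sum in both libraries, with medians of 0.21 and 0.26, and none passed. Members with at least 3 UMIs from at least 2 of 9 neutrophil genes were 21.4% (17.9 to 25.3) in the normal library and 20.7% (16.3 to 25.8) in the ketogenic one, against 4.05% and 4.99% of lymphocyte-only barcodes. Erythroid genes were met by no member, and mast cell or basophil genes by 2 members and 0.

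Within single lymphocyte types a few genes exceeded the sum in both libraries, several with a large part of their UMIs in 1 barcode. In NK-led members (99 and 38) 5 of 1372 genes were higher (0.364%) and 4 lower (0.292%). The higher genes were S100a8, S100a9, Chil3, Ifitm6 and H2-Eb1, of which the first 4 are typical of neutrophils or monocytes. S100a8 was at 173 CPM against 94.7 in the normal and at 476 against 86.4 in the ketogenic library, but 57.1% and 44.0% of its UMIs came from 1 barcode, and it was detected in 12 and 6 members. S100a9 had 57.0% and 36.4% of its UMIs in 1 barcode, and Chil3 15.4% and 37.8%. Ifitm6 was more widely spread, detected in 48 and 13 members, at 182 CPM against 108 and at 133 against 77.8, with 10.1% and 26.2% of its UMIs in 1 barcode. H2-Eb1 was detected in 65 and 15 members, with 9.24% and 30.7% in 1 barcode. The lower genes were Arg1, Mt1, Ctsl and Gzmg. In this order, 16.0%, 14.5%, 12.7% and 41.8% of their UMIs lay in 1 barcode of the normal library. In the ketogenic library these shares were 30.4%, 46.4%, 16.5% and 90.6%, and Gzmg was detected in 3 members.

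Gzmf, a granzyme, was below the sum in CD8-type and above it in Treg-type members. In CD8-type members (188 and 133) no gene of 5837 was higher (0.0) and Gzmf alone was lower (0.0171%), at 718 CPM against 1423 in the normal and 1108 against 1690 in the ketogenic library. In Treg-type members (58 and 46) 3 of 3105 genes were higher (0.0966%) and none lower (0.0). Gzmf was at 1229 CPM against 215 in the normal and at 978 against 520 in the ketogenic library, with 36.7% and 44.6% of its UMIs in 1 barcode. Xcl1, a chemokine of NK and CD8 T cells, was at 220 CPM against 99.2 and at 728 against 427, with 54.8% of its UMIs in 1 barcode in the normal library but 10.4% in the ketogenic one, where it was detected in 33 of 46. Gzma was at 650 against 255 and at 630 against 377, with 21.6% and 20.6% of its UMIs in 1 barcode. Granzymes and Xcl1 are typical of killer lymphocytes, and whether a further lymphocyte lay in these barcodes was not tested.

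Between the diets, members and the sums of their partners gave similar numbers of genes past the fold. At 1.5-fold, 25 of 9941 genes with at least 50 UMIs in both libraries together were higher (0.251%) and 110 lower (1.11%) in members of the ketogenic than of the normal library. The fitted sums of partners, made from other barcodes but with the members' own weights, gave 22 higher (0.221%) and 131 lower (1.32%). Past the fold in members and sums alike were 11 higher and 80 lower genes. Both comparisons set the same 2 libraries against each other, so their values are given side by side and not as support of one for the other. Of 22 macrophage genes, 13 were lower and none higher in ketogenic members, whose median macrophage weight was also lower. The part of the weight in these calls was not tested. Apoe, a lipid carrier, was at 2105 CPM in the normal and 1077 in the ketogenic members, with fitted sums of 2199 and 1270, and Ms4a7, a membrane protein of macrophages, at 550 and 269 with sums of 646 and 297. In members with weights of 0.2 to 0.8 the counts were 28 higher and 29 lower, of 9019 genes with enough UMIs in that smaller set.

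The genes with the highest ratio of ketogenic to normal members were also higher in the sums, though not all by 1.5-fold. Chil3, a chitinase-like protein of monocytes and neutrophils, was at 205 CPM in normal and 446 in ketogenic members, with sums of 198 and 388. Areg, an epidermal growth factor family ligand made by regulatory T cells among others, was at 12.3 and 44.2 CPM, with sums of 13.2 and 45.3. Pclaf and Stmn1, cell cycle genes, were at 71.7 and 153 and at 184 and 319 CPM, with sums of 104 and 143 and of 223 and 301. Dmkn, Ier5l, Hist1h1b, Retnlg, Rgcc and Hist1h2ae completed the 10, with ratios of 1.72 to 1.88. Il17a, the cytokine of gamma-delta and Th17 cells, had 0 UMIs in normal and 108 in ketogenic members, 33.3% of them in 1 barcode.

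The 10 lowest ratios were led by AY036118 (0.47) and Neat1 (0.50), a nuclear long RNA. They went on with Ms4a7, Slamf9, Apoe, C3ar1 (a complement receptor), Ch25h, Gm42418, Gpnmb and Lgmn (a lysosomal protease), at 0.51 to 0.54. AY036118 and Gm42418 were abundant in barcodes of at most 100 UMIs, at 347 and 37337 CPM in the normal library and 221 and 14228 CPM in the ketogenic one. Their part in the ratios was not tested.

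Few genes departed by 1.5-fold from the ratio that the sums gave, 5 higher (0.0503%) and 7 lower (0.0704%). Of the higher ones, Hspa1a, Hspa1b and Hspb1 encode heat shock proteins. Hspa1a was 1.55 times as high in ketogenic as in normal members, while the sums gave 0.82. Hspa1b was at 1.64 where the sums gave 1.05. Of the lower ones, Igkc, Gzmd and Gzme had under 20% of their UMIs in 1 barcode of either library, and Gzmd was at 0.62 where the sums gave 1.07. The rest had more than that in 1 barcode of at least 1 library, given here at its highest: Hspb1 (44.6%), Ccl8 (46.8%) and Col3a1 (85.1%) among the higher genes, and Gzmg (49.7%), Retnla (83.3%), Rhox5 (55.7%) and Cxcl3 (22.1%) among the lower ones. With 1 library per diet these departures cannot be told apart from differences between libraries.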

How the data were processed

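The deposited matrices hold raw UMI counts per gene and barcode, not filtered to cells, which the authors made with Cell Ranger (version 4 per the file headers). The submitters' processing notes give Cell Ranger 6.0.0, list Seurat 3.2.0, and name GRCm38 as well as mm10 as builds. The libraries hold 37575996 (normal diet) and 42710007 (ketogenic diet) UMIs over 32285 genes. All steps here were computed with scipy 1.17.1 and numpy 2.4.6 in Python 3.11.15 (pandas 2.3.3, matplotlib 3.10.9). No doublet caller was run, since mixed barcodes are the subject, and no ambient correction was made. Shares have Clopper-Pearson and counts exact Poisson intervals. CPM are UMIs per 1000000 outside mitochondrial and rule genes, except where the rule genes are summed. The weight fit was also run on mixtures simulated from the same partner profiles that it uses. That run cannot show how well the fit describes real members. Genes named against the sum are the 25 highest and 10 lowest of both libraries (no gene was called, so the 25 are a description) and those past the fold in 1 library. Between diets they are the 10 highest and lowest past the fold, and for the groups set against the sum 1 to 4 of those with the most UMIs; Cd274 and Hspa1a were added after their values were seen. Genes with over 20% of their UMIs in 1 barcode are named apart or given with that share, and genes of departures were named after their values were seen. The members and gene lists were chosen with earlier results of these data known. Symbols listed more than once were left out of gene counts.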

Additional observations from a re-analysis of the deposited data

How the results depend on the processing

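Of 109 alternative values, 69 stayed within the interval of the value reported or within 1.5 times the count, and 40 moved. With at least 6 UMIs for each gene set, members were 6.62% and 4.05% of passing barcodes (normal, then ketogenic), NK-led shares 16.4% and 7.98%, the normal CD8-type share 43.1%, median weight 0.464 and depth ratio 1.47, and 1 gene (Gzmg) was lower than the sum in both libraries. Thinned to 2000 UMIs, members were 2.35% and 1.73%, CD8-type 25.9% and 24.4%, Treg-type 6.25% and 1.22%, and normal NK-led 11.6%. Naming the type by the larger sum gave NK-led 25.3% and 18.4% and CD8-type 42.9% and 51.5%. Partners with 0 UMIs of the other gene set gave a normal depth ratio of 1.46. A monocyte profile lowered the weights to 0.313 and 0.15, with 1 gene lower (Rhox5). Genes lower in both numbered 3 without ribosomal protein genes and with a pseudocount of 5 CPM (Cald1, Igfbp4 and Rhox5), and 4 at weights of 0.2 to 0.8 (Ccl8, Gzme, Gzmg and Gzmf). Between diets, 80 genes were higher and 380 lower with 5 CPM, and 1 and 3 at a fold of 2. No paired analysis was possible because there was 1 library per diet.

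Added after seeing the data: partners kept by weight gave a ketogenic weight of 0.335, 1 higher gene (Ifitm6) and 2 lower genes (Pf4 and Arg1). NK-led members alone gave 5 higher and 4 lower genes, CD8-type 1 lower and Treg-type 3 higher. Without the 10 deepest members 1 gene was lower (Igfbp4). Weights of 0.2 to 0.8 gave a ketogenic depth ratio of 1.47 and 29 lower genes between diets, of 9019 tested. The cause of these changes was not tested. Depth limits all shares, and 1 library per diet limits every difference between diets.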
